A study of Gasterosteus aculeatus with 29 samples.

Results

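The 100 genes described here differed in mean whole-brain level between sticklebacks (Gasterosteus aculeatus) with both cues of predation risk and every other group. The cues were the father's exposure and the fish's own exposure as juveniles. These 100 ranked highest by the smallest, in size, of 3 t, among genes whose t for each cue alone was small. They were chosen from a table of 17730 genes, of which 16593 had a log2 CPM (log2 of reads scaled to library size, as deposited) above 0 in at least 5 of the 27 libraries used for the choice. For each gene a pooled 2-sample t compared fish with both cues with each of the other 3 groups. Genes were kept when the 3 t had one sign and the t of each single cue against neither cue was below 1 in size. That left 4981 genes, 2490 higher and 2491 lower in both. They were ranked by the smallest of the 3 t, and the first 100 are the members, 60 higher and 40 lower.

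The study crossed a father's exposure to predation risk during parental care with the offspring's own exposure as juveniles, and sequenced poly-A RNA of whole brains of individual fish. The groups were offspring with neither exposure, with paternal exposure only, with personal exposure only, and with both. The rule used 4 libraries of neither (3 fathers), 8 of paternal only (5 fathers), 9 of personal only (5 fathers) and 6 of both (4 fathers). Siblings share a father, so the fish of a group are not independent families, and fathers are nested in paternal exposure. The labels give no strain and no age beyond exposure as juveniles, and their protocol counts 9 paternal-only fish, of which 8 are analysed here. In whole brain, fewer cells of a type and less RNA per cell cannot be told apart. Since stranding is not given, reads of genes that overlap on opposite strands may be shared. How reads of near-identical copies were counted is not given either.

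Stickleback fathers guard the nest and tend the young alone, so a father's encounters with predators during care can reach offspring through that care. Predator cues in fish act through sensory pathways and the neuroendocrine stress axis, in which corticotropin-releasing hormone, pituitary hormones and cortisol take part. No source used here pairs the table's identifiers with gene symbols (the reference table matched 0 of them). The members are therefore known by identifier alone, no role can be given for them, no sequence is shown, and marker genes of brain cell types could not be looked up.

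Depth ran from 2244609 to 55155451 reads in the table per library (median 8121703). Both extremes belong to fish with both exposures, replicates 6 and 5. The choice left out neither replicate 3 and both replicate 7. Neither replicate 3 stood apart, with an interquartile range over genes of 1.52 log2 units around each gene's median, where the other libraries had 0.248 to 0.479. Both replicate 7, labelled male, lay nearer the female mean in 183 of 189 genes called by sex with a difference of at least 1 log2 unit. Neither replicate 3, also labelled male and also outside the sex fit, had 75. The 11 males among the libraries of the rule reached at most 29. These 11 were in the fit that chose the genes and set the male mean, which can lower their count. No source says whether libraries of a group were prepared separately beyond coming from separate fish.

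The differences that chose the members were small. Both minus the mean of the other 3 groups had a median size of 0.29 log2 units over the members, a 1.22-fold difference, where the median size over all tested genes was 0.10. In the 60 higher members it ran from 0.10 to 0.97 log2 units, with a median of 0.27. In the 40 lower members it ran from -0.11 to -2.53, with a median of -0.38. The -2.53 belongs to ENSGACG00000004882, in which both replicate 6, the shallowest library, had 0 reads and lay at the floor of -6.77. The other libraries of both had -2.64 to -0.58 log2 CPM for this gene, so the floor value enlarges its difference. A size of at least 1 log2 unit was reached by 6 members, all lower, and 54 members were under 0.3. The single-cue differences from neither ran from -0.54 to 0.19 log2 units for paternal only and from -0.54 to 0.47 for personal only, so in some members they exceeded the median difference of both. ENSGACG00000000155 had the lowest of each. These values were used to choose the genes and carry no test.

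**Figure D1:**
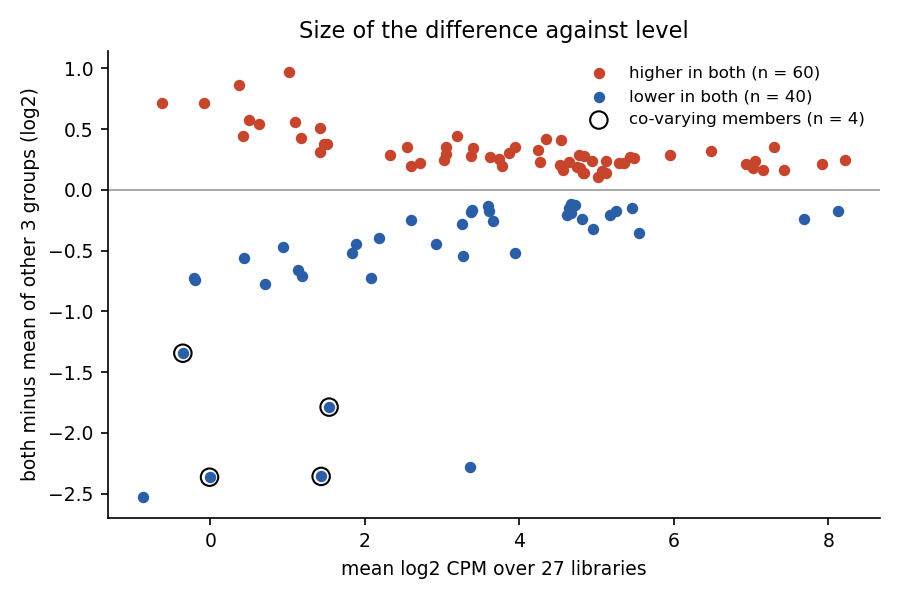
The log2 difference of both from the mean of the other 3 groups (vertical axis) against mean log2 CPM (horizontal axis), 1 point per member, with 60 higher members in red, 40 lower members in blue and 4 co-varying members ringed. The 6 differences of at least 1 log2 unit are all below 0, and members with high levels have small differences.

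The members covered much the same levels as all tested genes. Mean log2 CPM had a median of 3.70 with quartiles of 1.76 and 4.95 over the members, and a median of 3.54 with quartiles of 2.03 and 4.79 over all tested genes. The SD within groups had a median of 0.20 log2 units in the members and 0.25 in all tested genes, and the t used to rank them divides by this spread. In 21 members some library of the rule had under 10 reads, in 1 a library had 0, and in 42 every library had at least 100. Members with few reads carry more counting error in the shallow libraries.

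The first-ranked member of all was lower in both. ENSGACG00000011936 had 2.54, 2.64, 2.58, 2.97, 3.30 and 3.14 log2 CPM in both replicates 1 to 6. In neither it had 3.02, 3.60, 3.56 and 3.77 in replicates 1, 2, 4 and 5. The single-cue groups spanned 2.81 to 3.64 (median 3.51, n = 8) in paternal only and 2.83 to 3.67 (median 3.42, n = 9) in personal only. Both had a mean of 2.86 ± 0.32 (SD, n = 6), or 0.54 log2 units below the mean of the others, and overlapped every other group. Its replicates 4, 5 and 6 lay inside the ranges of the single-cue groups, and replicates 5 and 6 inside that of neither.

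ENSGACG00000000155, ranked 2, had the widest values of the leading members. It had 1.54, -0.72, 1.02, 2.80, 2.84 and 2.45 log2 CPM in both replicates 1 to 6, and 4.41, 5.05, 3.32 and 4.41 in neither replicates 1, 2, 4 and 5. Paternal only ran from 2.77 to 5.33 (median 3.52) and personal only from 0.88 to 5.22 (median 3.66). The mean of both was 1.65 ± 1.37 (SD, n = 6), 2.28 log2 units below the mean of the others. Both and neither did not overlap, replicates 4 and 5 of both lay inside the range of paternal only, and personal only replicate 9, at 0.88, lay lower than all but 1 library of both.

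Among the higher members ENSGACG00000015990 and ENSGACG00000009120 ranked first, at ranks 4 and 5. ENSGACG00000015990 had 5.97 to 6.40 log2 CPM (median 6.17, n = 6) in both, lowest in replicate 4 and highest in replicate 3. Neither had 6.09, 5.77, 5.91 and 5.82, paternal only ran from 5.79 to 6.07 (median 5.96) and personal only from 5.51 to 6.07 (median 5.81). Both lay 0.29 log2 units above the mean of the others, and 2 of its 6 libraries lay inside the other groups' ranges.

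ENSGACG00000009120 had 7.00, 6.97, 7.14, 7.17, 7.07 and 7.19 log2 CPM in both replicates 1 to 6 (7.09 ± 0.091, SD, n = 6). Its neither libraries had 6.82, 6.97, 6.78 and 6.85, paternal only 6.57 to 7.15 (median 6.90) and personal only 6.72 to 7.02 (median 6.88). The difference from the mean of the others was 0.21 log2 units. Paternal only replicate 5, at 7.15, lay above 4 of the 6 libraries of both.

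**Figure D2:**
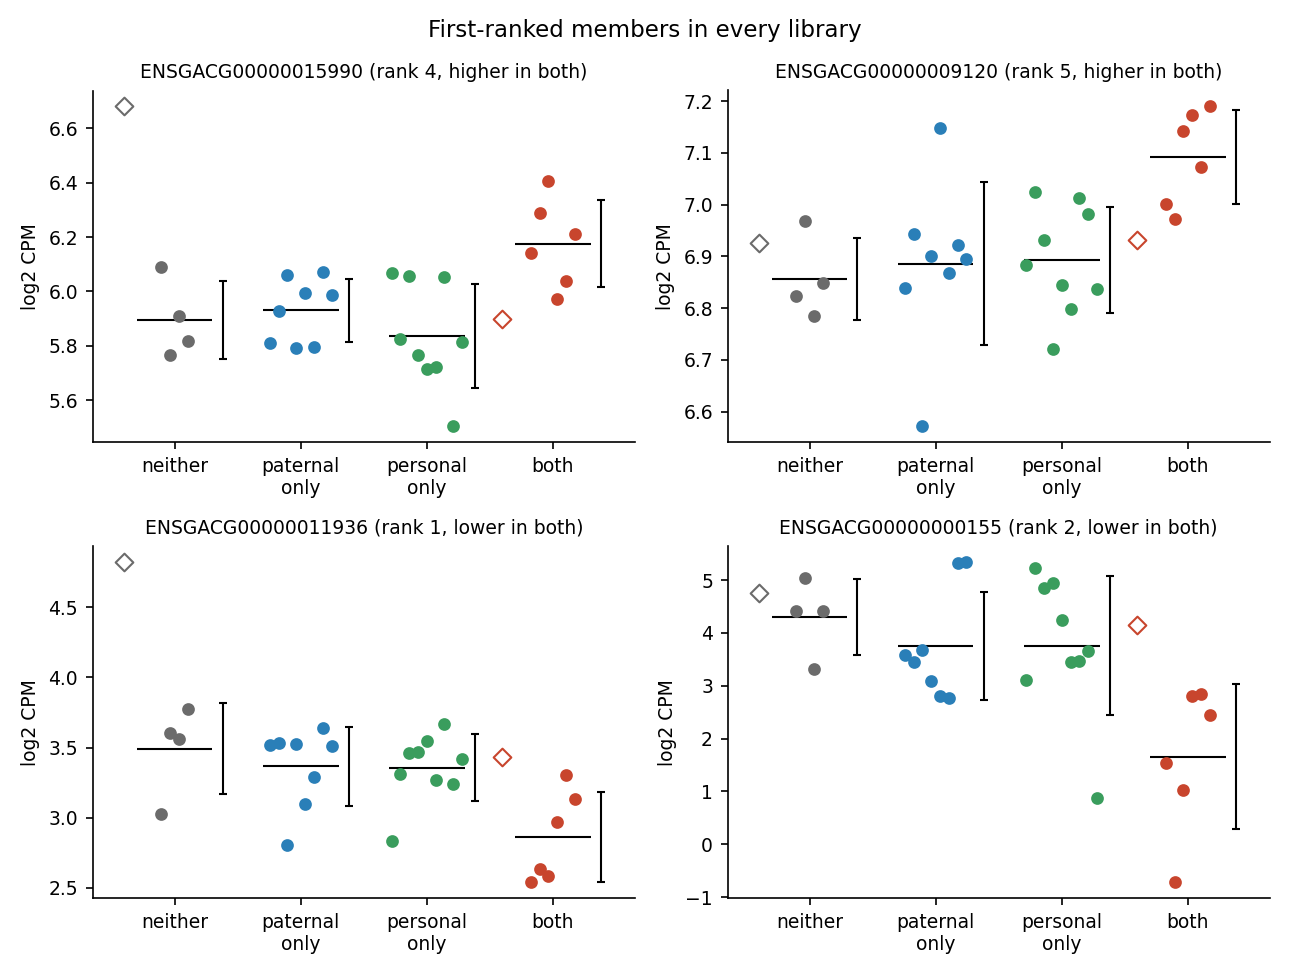
Log2 CPM in every library for the 2 first-ranked higher and the 2 first-ranked lower members, by group. Filled points are the libraries of the rule, lines and bars their mean and SD, and open diamonds the libraries the rule did not use. In each panel both overlaps at least 1 other group, and both replicate 7 (open, at 5.90 and 6.93 log2 CPM in the higher members and 3.44 and 4.15 in the lower) lies among the other groups.

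No member separated both from all others: 0 of 100 had all 6 libraries of both beyond all 21 other libraries. Over all tested genes this held for 0%, in either direction. Beyond the midpoint between the mean of both and the mean of the others, 6 members had all 6 libraries of both, 55 had 5, 36 had 4 and 3 had 3. The most extreme library of both was replicate 6 in 33 members, replicate 3 in 30, replicate 2 in 22, replicates 1 and 4 in 6 each, and replicate 5 in 3. Replicate 6 is the shallowest library and replicate 5 the deepest. Replicates 6, 3 and 2 also had the widest interquartile ranges around each gene's median among the libraries of the rule, 0.418, 0.479 and 0.442. Replicates 1, 4 and 5 of both had 0.324, 0.285 and 0.373, and both replicate 7, outside the rule, had 0.277. The parts of depth and of this width in the order were not tested.

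At the edge of the list ENSGACG00000018471, ranked 100, had a smallest t of 1.85, and ENSGACG00000020840, the next gene and not a member, had 1.84. ENSGACG00000018471 had 1.65 ± 0.14 log2 CPM in both (SD, n = 6), 1.32 ± 0.42 in neither (n = 4), 1.29 ± 0.33 in paternal only (n = 8) and 1.42 ± 0.25 in personal only (n = 9). ENSGACG00000020840 was lower in both, with 0.81 ± 0.34 against 1.24 ± 0.12, 1.17 ± 0.32 and 1.18 ± 0.40. The first-ranked member had a smallest t of 3.03. The smallest t changes little across this edge.

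The library of both that the choice did not use gives a look at the pattern in a fish outside it. In both replicate 7, 28 of 100 members lay beyond the midpoint on the side of both, 13 of the 60 higher and 15 of the 40 lower. Among the other 4881 genes that met the sign and single-cue conditions the share was 41.3%. Those genes ranked lower by the smallest t, so a library without both cues can fall beyond their midpoints more often. In neither replicate 2, 17 members did so, beside 31.5% of all genes meeting the conditions. A share of members below 41.3% is therefore no result about them. In the 6 libraries of both that chose the genes, the number of members beyond the midpoint was 61 to 88. In the 21 libraries of the other groups it was 11 to 43 (median 25), 7 of them above 28. On a scale where 0 is the mean of the other groups and 1 the mean of both, the median member stood at 0.20 in both replicate 7. The chosen libraries of both stood at 0.74 to 1.32 and the other groups at -0.33 to 0.31. On both measures this fish lay within the range of fish without both cues. It is a single library and gives no test.

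**Figure D3:**
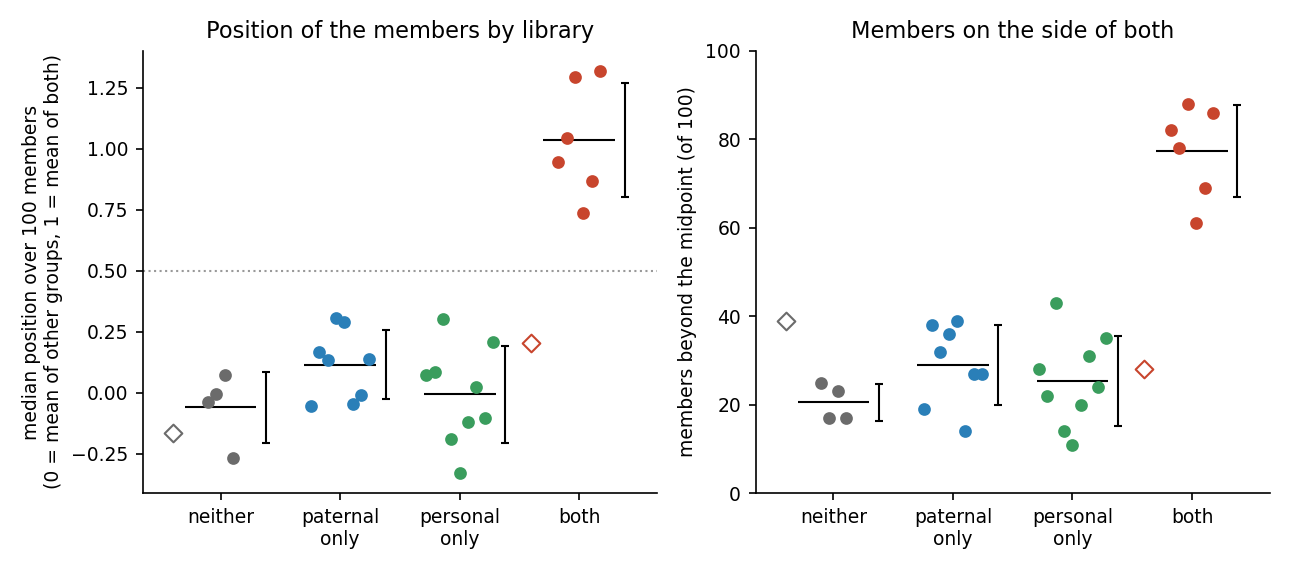
Left, median position over the 100 members in each library, where 0 is the mean of the other groups and 1 the mean of both. Right, number of members beyond the midpoint. Filled points are the libraries of the rule with mean and SD, and open diamonds the 2 libraries it did not use. Both replicate 7 sits at 0.20 and 28 members, within the range of the other groups.

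The members farthest beyond their midpoint in both replicate 7 were ENSGACG00000008936 and ENSGACG00000000383 among the higher ones. ENSGACG00000008936 had 1.92 log2 CPM there, with 1.56 to 1.99 in the other libraries of both and 1.25 to 1.59 in neither. ENSGACG00000000383 had 5.25, where the others of both had 5.12 to 5.36. Among the lower members ENSGACG00000020310 had 3.19, within the 3.17 to 3.40 of both, and ENSGACG00000000573 had 5.30, within 5.20 to 5.45. The single-cue groups and the neither group all reached into the range of both in all 4. ENSGACG00000008936 reached 1.83 in paternal only replicate 1, and ENSGACG00000000383 5.30 in personal only replicate 3, above both replicate 7. ENSGACG00000020310 fell to 3.22 in personal only replicate 9. ENSGACG00000000573 fell to 5.28 in personal only replicate 6, below both replicate 7. These 4 are the best cases and do not stand for the list.

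Lane, sex label and family of both replicate 7 stand beside this result. Its lane is 8, where no library of both was in the rule. Its sex label goes against its sex-differing genes. Its father, M11, is also the father of both replicate 6, the library with the highest median position of 1.32. Against the 10 libraries of the other groups in lanes 7 and 8, both replicate 7 lay in the members' direction in 60 of 100, by a median of 0.046 log2 units. Against its 2 siblings of father M11 with paternal exposure only, it did so in 62 of 100, by a median of 0.056, where both replicate 6 did so in 91, by 0.35. The rule used these comparison libraries and both replicate 6 to choose the members, which can tilt all 3 counts toward the list's direction. No share over other genes stands beside them, so they are a description only. The parts of lane, sex label and family were not tested.

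Neither replicate 3, also outside the choice, had 39 of 100 members beyond the midpoint and a median position of -0.16. The share among the other genes meeting the conditions was 44.2%, with the same limit on the comparison as for both replicate 7. Its values were far out on both sides, with 34 members past the mean of both and 55 on the far side of the mean of the others. The farthest on the side of both were ENSGACG00000003855 with 5.76 log2 CPM, ENSGACG00000008797 with 5.54, ENSGACG00000020310 with 2.28 and ENSGACG00000009644 with -1.24. In the other neither libraries these genes had 4.42 to 4.63, 4.96 to 5.05, 3.26 to 3.50 and 1.57 to 2.34.

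Families with both and paternal-only siblings were set side by side as a description, since the rule used these groups. In the libraries of the rule, 56 members had the difference between siblings in the list's direction in all 4 families, 40 in 3 and 4 in 2. By family, 93 members did so in M15 (median 0.28 log2 units), 91 in M11 (0.35), 86 in M42 (0.20) and 82 in M43 (0.14). Each family had only 1 or 2 fish per condition. In M15 and M11 the siblings with both cues and those with paternal exposure only were of opposite sex. Only in M43 were all of these fish of the same sex. In M11 and M42 the fish with both cues came from lane 6 and the paternal-only fish from lanes 7 and 8. In M15 and M43 the fish with both cues came from lanes 4 and 5 and the paternal-only fish from lane 6. No family had both conditions in the same lane. The parts of sex and lane in these differences were not tested.

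Sex labels were not used by the rule, and sex was tested in limma across all genes in the same libraries. Each group mixed the sexes, so a sex difference widens the spread within groups that the rule's t divides by. The choice alone can therefore lower the members' shares below those of all tested genes, and a lower share is no result about the members. Differences between fathers or lanes within a group, tested below, widen that spread too. Fathers and lanes were also spread unevenly over the groups, so there the choice can raise the members' shares as well as lower them. Of the members 1 of 100 passed at an adjusted p under 0.05, where 3.67% of all tested genes did. It was lower in females, as were 0.579% of all tested genes, and 0 members were called higher in females, where 3.09% of all were. Limma-voom called 2 members, both lower in females, where it called 6.69% of all tested genes, 2.51% lower and 4.18% higher in females. At an unadjusted p under 0.05 there were 10 members in limma (13.0% of all tested genes) and 19 in limma-voom (21.7%). ENSGACG00000005518, ranked 14 and lower in both, had 5.46 ± 0.25 log2 CPM in females (SD, n = 16) and 5.69 ± 0.15 in males (SD, n = 11). It fell by 0.23 ± 0.062 (SE) in females relative to males in the limma fit (adjusted p = 0.0351). That call was lost without neither replicate 1, 2 or 5 and without the father term (adjusted p of 0.0638 to 0.0974). Its lowest value, 4.83, came from both replicate 6, a female. The next member, ENSGACG00000010382, differed by -0.37 ± 0.12 between females and males (limma adjusted p = 0.0799), and limma-voom on recovered reads called it at -0.43 (adjusted p = 0.0077). In the other direction ENSGACG00000019937 had 3.51 ± 0.23 in females and 3.24 ± 0.35 in males (limma adjusted p = 0.225), passing only without neither replicate 2 (adjusted p = 0.0444). ENSGACG00000016029 had 4.62 ± 0.11 and 4.50 ± 0.16 (limma adjusted p = 0.34).

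Whether the difference of both from the other groups itself differed between females and males was tested from group-by-sex means. Such a difference also widens the spread within both, so the choice can lower the members' shares here as well. Limma called 0 members, as it called 0% of all tested genes, and limma-voom called 0 members and 0.0603% of all. At an unadjusted p under 0.05 limma had 2 members, where 6.02% of all tested genes reached it, and limma-voom had 6, where 16.0% did. ENSGACG00000009644, a lower member, came closest, with a female minus male effect of -0.73 ± 0.34 log2 units (SE). Its difference of both from the others was thus more negative in females. ENSGACG00000012973 led the other side with 0.27 ± 0.13 (limma adjusted p = 0.809 for each). ENSGACG00000001718 had 0.62 ± 0.34 and ENSGACG00000013647 had -0.23 ± 0.14 (limma adjusted p = 0.812 and 0.825). With all 29 libraries these last effects were 0.32 and -0.02 log2 units (limma adjusted p of 0.996 and 0.999). ENSGACG00000009644 then had -0.98 and ENSGACG00000012973 0.25 (limma adjusted p of 0.952 and 0.957). That setting adds both replicate 7 as a male, against its sex-differing genes, and neither replicate 3, which stood apart. In the fit to 27 libraries the males of both were only 2 fish, both of father M15.

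Families were compared with a moderated F test for fathers within paternal exposure. M15 and M43 each gave 2 libraries of both and 1 of paternal only, so a family difference can enter the rule's contrasts. The choice can therefore raise or lower the members' share, and that share is no result about the members. Limma called 6 of 100 members, where 3.13% of all tested genes were called, and limma-voom called 5, where 2.33% were. At an unadjusted p under 0.05 there were 19 members in limma (21.7% of all tested genes) and 17 in limma-voom (19.9%). The members called numbered 3 to 6 on leaving out each neither library. ENSGACG00000002154, a higher member at rank 59, had family means from 5.13 log2 CPM in M42 to 5.58 in M15. It passed in limma (adjusted p = 0.0144) and in limma-voom (adjusted p = 0.0156), but not in limma with all 29 libraries (adjusted p = 0.0711). ENSGACG00000012821, a higher member at rank 42, passed as well (limma adjusted p = 0.0269, limma-voom adjusted p = 0.031). It ran from 4.33 in M9 to 5.10 in M43 among exposed fathers and from 3.97 in M8 to 4.62 in M41 among unexposed ones. ENSGACG00000011788, a lower member at rank 3, passed too (limma adjusted p = 0.0243, limma-voom adjusted p = 0.0295). Its means ran from 3.34 in M15 to 4.18 in M42 among exposed fathers and from 3.86 in M20 to 4.57 in M41 among unexposed ones. All these family means are raw and mix groups, while the test compared fathers within exposure with group means and sex fitted. For ENSGACG00000002154 and ENSGACG00000011788 the family at the side of both, M15, gave 2 of the 6 libraries of both, and for ENSGACG00000012821 this holds for M43. The part of family in the difference of both was not tested.

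A small block of lower members varied together across fish. In the 21 libraries outside both, after group means were removed, 4 members had pairwise r of 0.92 to 0.99. They are ranked 10, 22, 39 and 73, were singled out after their values were seen, and make up 4 of the 6 members with a difference of at least 1 log2 unit. No other pair of the 4950 member pairs reached 0.9. Over all pairs of higher members the mean r was 0.043, over lower members 0.058 and over all tested genes 0.0012. Among all tested genes, 14 followed the block's mean profile with r over 0.9, of which 4 were these members. The 21 points share libraries and depth, so the r are a description.

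The block was high in 6 libraries outside both. Its mean log2 CPM was 3.82 in neither replicate 1, 3.62 and 3.38 in paternal only replicates 5 and 7, and 4.01, 3.56 and 2.96 in personal only replicates 6, 7 and 1. Of these 6 libraries 5 came from lanes 7 and 8 and personal only replicate 1 from lane 4. Over the 10 libraries of lanes 7 and 8 it ran from -0.71 to 4.01 (median 2.42), and over the 11 libraries of lanes 4 to 6 outside both from -0.78 to 2.96 (median -0.13). The 6 libraries of both, all from lanes 4 to 6, had -1.21 to -0.35 (median -0.91). Both replicate 7, from lane 8, had 0.64. The 6 high libraries came from fathers M20, M42, M11 and M31. Other fish of M20, M42 and M11 outside both had lower means: 0.96 in personal only replicate 2, and 1.20 and 1.23 in paternal only replicates 6 and 8. Personal only replicate 8, from lane 7 and father M41, had -0.71. The parts of lane and family in the block's mean were not tested.

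**Figure D4:**
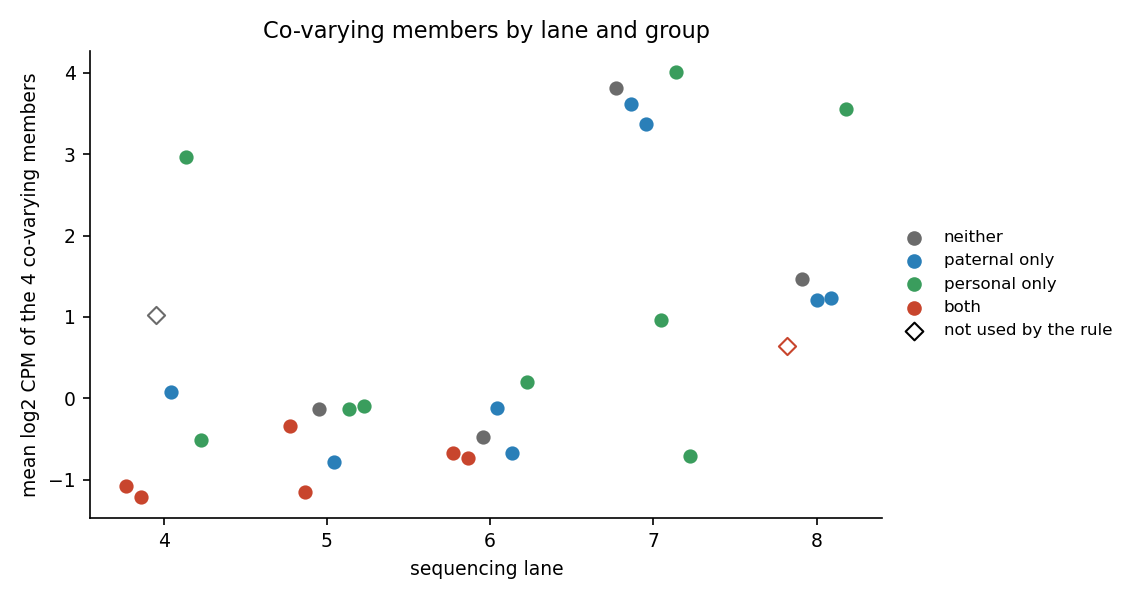
Mean log2 CPM of the 4 co-varying members in each library by sequencing lane, coloured by group, with open diamonds for the libraries not used by the rule. High values fall mostly in lanes 7 and 8, where the rule had no library of both, and lanes 4 to 6 outside both have a median of -0.13.

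Within lanes 4 to 6 the block was lower in both by a median of 0.76 log2 units over its 4 members, where all lanes together gave 2.07. The other 96 members had a median of 0.29 there. In these lanes the block's mean was 2.96 in personal only replicate 1 and -0.78 to 0.20 in the other libraries outside both. The libraries of both had -1.21 to -0.35, so those ranges overlapped. A limma test of lanes 7 and 8 against lanes 4 to 6 in the 3 groups outside both called 0 members and 0% of all tested genes, as did limma-voom. At an unadjusted p under 0.05 there were 8 members in limma and 5 in limma-voom, where 6.29% and 7.13% of all tested genes reached it. ENSGACG00000020936, the block's member at rank 73, had 2.15 ± 2.34 log2 CPM in lanes 7 and 8 (SD, n = 10) and -0.98 ± 1.40 in lanes 4 to 6 (SD, n = 11), a limma difference of 2.37 ± 0.86 (SE, adjusted p = 0.769). In limma-voom on recovered reads that difference was 0.09 (adjusted p = 0.991), and without neither replicate 1 it was 1.69 in limma (adjusted p = 0.96). It had 2 to 498 reads per library. It also passed the test between fathers (limma adjusted p = 0.0317), but not in limma-voom (adjusted p = 0.0778). Nor did it pass without neither replicate 1 or 5 (limma adjusted p = 0.0693 and 0.0556). Among exposed fathers its raw family means ran from -2.26 in M43 to 1.42 in M11. Among unexposed fathers they ran from -1.82 in M41 to 4.11 in M31.

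The other members nearest a lane difference were ENSGACG00000003847, with 4.96 ± 0.17 log2 CPM in lanes 7 and 8 and 4.77 ± 0.16 in lanes 4 to 6, ENSGACG00000017689, with 2.87 ± 0.27 and 3.30 ± 0.29, and ENSGACG00000005518, with 5.59 ± 0.23 and 5.67 ± 0.13 (SD, n = 10 and 11; limma adjusted p = 0.769 for each). The limma difference of ENSGACG00000003847 was 0.23 log2 units, and 0.36 with all libraries outside both. It and ENSGACG00000017689 lay toward both in lanes 4 to 6, from which all 6 libraries of both came, and ENSGACG00000005518 lay toward both in lanes 7 and 8. For the 2 first-ranked members of each direction the differences within lanes 4 to 6 were -0.59 for ENSGACG00000011936, -1.98 for ENSGACG00000000155, 0.29 for ENSGACG00000015990 and 0.27 for ENSGACG00000009120, beside -0.54, -2.28, 0.29 and 0.21 over all lanes. Neither had only 2 libraries in these lanes.

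Which genes the rule chose changed with the fish included. With 1 library of both left out, 49 to 59 of the 100 stayed among the 100 chosen, and with 1 library of neither left out 58 to 67. Without the libraries of father M15 only 18 stayed, without M43 31, without M42 39 and without M11 41. With all 29 libraries 30 stayed, and with both replicate 7 alone added back 71. The median difference of the 100 members moved less, from 0.25 to 0.32 log2 units on leaving out a library of both or of neither or a father, and was 0.25 with both replicate 7 added. That median starts from genes picked for it and does not measure how the list would do in other fish.

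**Figure D5:**
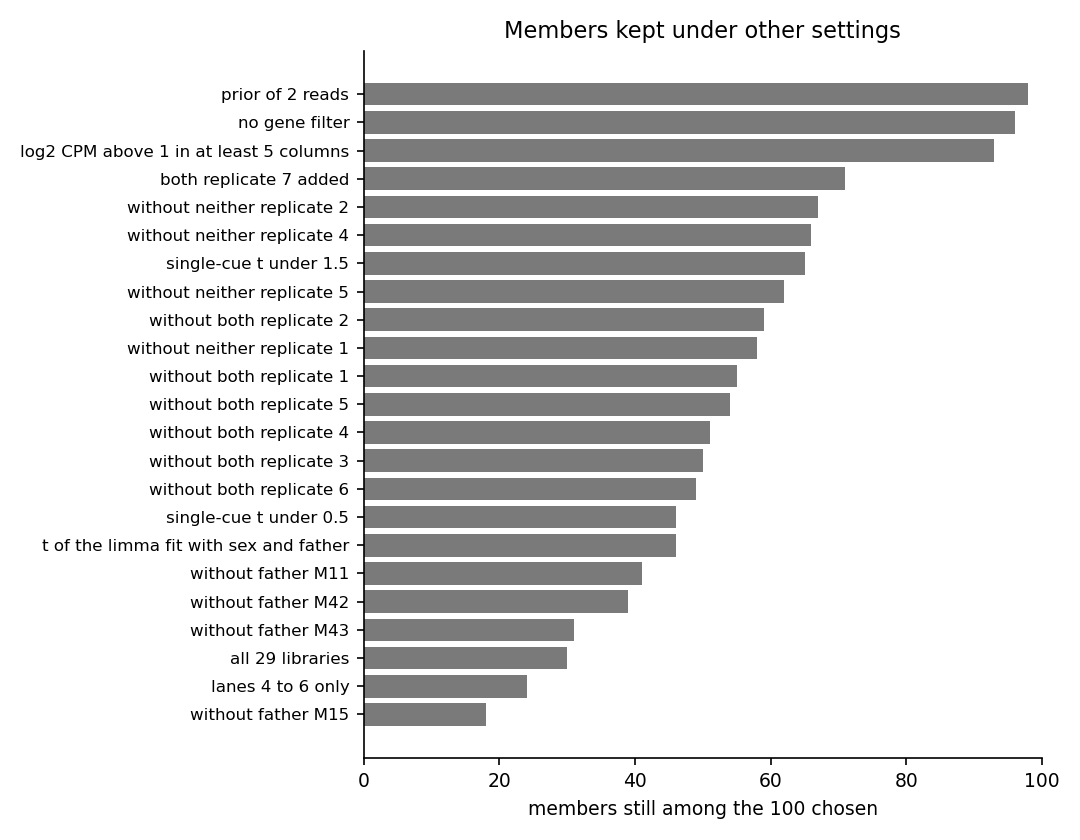
Number of the 100 members that the same rule still chooses (horizontal axis, 0 to 100) under each other setting (vertical axis). A larger prior count or another filter on low values keeps 93 to 98, while leaving out father M15 keeps 18.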

How the data were processed

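Whole-brain RNA was poly-A enriched and sequenced single-end, per the labels' protocols. The authors used TopHat2 (2.0.8), HTSeq (0.6.1), edgeR and CASAVA (1.8.2), in no stated order, per the submitters' processing notes. The only build named there is a mouse assembly, and for the stickleback build the sources used here give none. The authors deposited 1 table of log2 CPM values. Its floor of -6.77 and whole steps above it gave back whole reads for 100% of values (tolerance 0.01 reads), hence the depths. PCR copies were not told apart, so reads describe counting error only.

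The deposited log2 values of 16593 genes in 27 libraries were fitted in R 4.3.3 by limma-trend, version 3.58.1, with statmod 1.5.0 for the correlation between siblings. Fits held group means and sex, with father as a random block (fixed terms in the test of fathers, group-by-sex means for the sex difference in the effect). The test of lanes left out both. Benjamini-Hochberg values span all tested genes, with a threshold of 0.05. The fits were tried on simulated data without the random father block, so the fits that held this block were not themselves tried. Limma-voom was tried on simulated data for the test of fathers only. The test of fathers is given in limma-trend and in limma-voom, since limma-trend made more false calls in the simulated data. The limma-trend adjusted p of that test may thus be too small. Libraries were numbered in deposition order and lanes read from titles. At most 2 identifiers per direction and comparison were named, by rank or smallest p. The members and lists were chosen with earlier results of these data known. Alternatives changed libraries, statistic, prior, filter, scaling and tool.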

Additional observations from a re-analysis of the deposited data

Results flagged for a closer look

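Single libraries that stood off from their group turned up 5 times among 112 group-wise sets checked, and chance flags about 1 in 20 such sets. ENSGACG00000000155 had 0.88 log2 CPM in personal only replicate 9 and 3.10 to 5.22 in the others of that group. ENSGACG00000005518 had 4.83 in both replicate 6, the shallowest library, and 5.28 to 5.49 in the others of both. ENSGACG00000011788 had 3.51 in paternal only replicate 3 and 3.98 to 4.37 in the others. ENSGACG00000020840, just outside the list, had 0.45 in the same library and 1.09 to 1.45 in the others. ENSGACG00000013647 had 7.26 in personal only replicate 1 and 6.90 to 7.04 in the others.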

How the results depend on the processing

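The number of members that the rule still chose fell from 100 to 30 with all 29 libraries, 24 within lanes 4 to 6, and 46 with t from the limma fit with sex and father. It was 46 and 65 with the limit on the single-cue t at 0.5 and 1.5, and 41, 18, 39 and 31 without fathers M11, M15, M42 and M43 (a choice made after seeing the data). Leaving out single libraries of both or neither gave 49 to 67. A prior of 2 reads, a filter at log2 CPM above 1 and no filter gave 98, 93 and 96. The cause was not tested. The median member difference stayed within 0.079 log2 units of its main value in every alternative run. That limit is the SD, over the libraries of both in the rule, of the members' median signed deviation from the other groups. The members were picked for this difference in nearly the same libraries, so little movement was set in advance. With all 29 libraries 93 of the 100 members still differed from all 3 other groups in the list's direction. Members called by sex numbered 0 without the father block, 2 in limma-voom, and 0 to 1 on leaving out each neither library. Members called by father numbered 3 to 6 on leaving out each neither library. Calls by lane and by sex difference in the effect stayed at 0 in the alternatives run. TMM was not run; median-of-ratios factors took its place. By replicate number, no paired analysis was possible because the numbers follow deposition order, and siblings were taken up through the father term and the comparison by family. Shallow libraries limit the 21 members with under 10 reads somewhere.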
